A study of Caenorhabditis elegans with 4 samples.

Results

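The regions described here are the RNA polymerase II peaks of the X chromosome that were listed in replicate 2 of a ChIP-seq experiment on early embryos and overlapped no peak of replicate 1 by even 1 bp. They numbered 405, out of 781 replicate 2 peaks on X and 5585 on all 6 nuclear chromosomes, and they covered 806 kb, or 4.55% of X. The study used Caenorhabditis elegans N2, a wild-type laboratory strain, kept at 20 °C as a mixed population of males and hermaphrodites, and embryos were collected by bleaching gravid adults. It holds 4 samples of this genotype and stage, 2 precipitated with the antibody 8WG16 (replicates 1 and 2) and 2 of DNA taken before precipitation (input). Positions of peaks from each precipitated sample and from a list of the whole series were used. The input libraries were not used here as samples of their own. Libraries came from whole embryos, so a peak in few cells and a weak peak in many cells cannot be told apart. All positions are in build WormBase WS220.

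RNA polymerase II transcribes protein-coding genes, and its largest subunit carries a C-terminal tail that is unphosphorylated when the enzyme is recruited to promoters and is phosphorylated as transcription proceeds. 8WG16, a monoclonal antibody raised in mice, mainly recognises the tail in its unphosphorylated state. The X chromosome of this species is present in a pair in hermaphrodites and singly in males, and in hermaphrodite embryos a condensin-based dosage compensation complex binds along both X chromosomes and lowers their transcription. X is also poor in genes expressed in the germ line.

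The members were chosen by the overlap between the lists, so the share of X peaks without a counterpart is a description and not a finding. On X, 405 of 781 replicate 2 peaks lacked a counterpart (51.9%, exact 95% binomial interval 48.3 to 55.4%), against 1753 of 4804 on the autosomes (36.5%, 35.1 to 37.9%). Over all nuclear chromosomes the share was 38.6%. Replicate 1 listed fewer peaks than replicate 2, with 500 on X and 3843 on the autosomes. The intervals given here, apart from those for shares of bases, cover counting error over peaks, not differences between embryo preparations. With 1 list per replicate and a single group there is no test over samples, and none was made over peaks, which lie close together and are not replicates. Read depth is unknown.

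The members were about as dense along X as peaks of the same kind on the autosomes, while peaks with a counterpart were sparse there. X carried 22.9 members per Mb. Autosomal peaks of replicate 2 alone came to 21.2 per Mb, and to between 14.1 on V and 27.1 on I. Replicate 2 peaks with a counterpart came to 21.2 per Mb on X, against 37.0 per Mb on the autosomes together, and X had fewer of them per Mb than any of the 5 autosomes (22.7 on V to 47.4 on III). There were thus 1.08 members for each matched peak on X, and 0.53 to 0.62 on the single autosomes. The members held 31.3% of the bases under replicate 2 peaks of X, against 19.9% for autosomal peaks of replicate 2 alone.

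**Figure D1:**
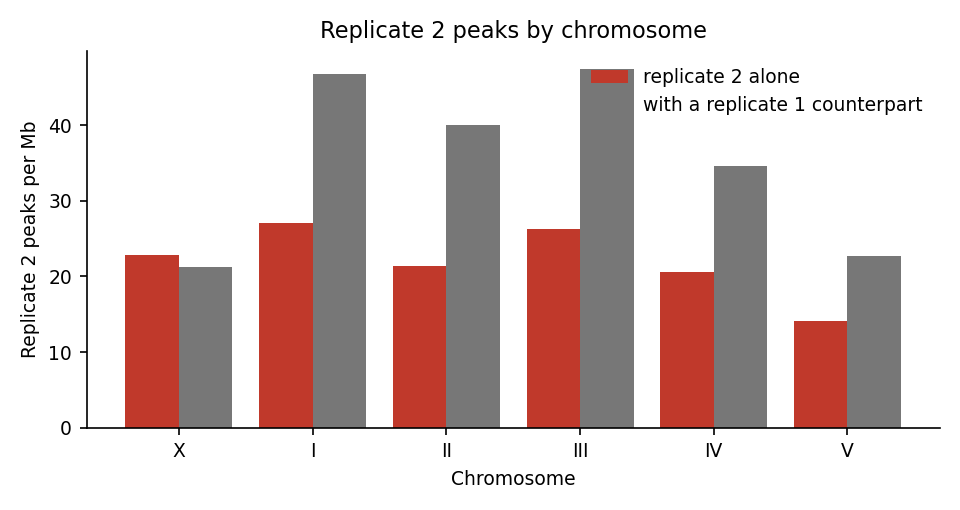
Replicate 2 peaks per Mb on each chromosome, with peaks of replicate 2 alone on the left of each pair of bars and peaks with a replicate 1 counterpart on the right. On X the bars are 22.9 and 21.2 per Mb, and on every autosome the left bar is the lower one.

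The larger share of unmatched peaks on X than on the autosomes together was seen in each of 5 width classes. Among replicate 2 peaks of 1000 to 1499 bp, 201 of 252 on X (79.8%) had no counterpart, against 928 of 1420 on autosomes (65.4%). Among those of 1500 to 2499 bp it was 58.7% on X and 41.7% on autosomes. Among peaks of 2500 to 4999 bp it was 34.6% (interval 27.2 to 42.5%) on X and 17.0% (14.8 to 19.4%) on autosomes, and at 5000 bp or more 12.3% (7.59 to 18.6%) on X and 6.17% (4.73 to 7.89%) on autosomes. Only 10 X peaks were narrower than 1000 bp, and 9 of them were members, against 41 of 49 on autosomes (83.7%) and 6 of 6 on V. The intervals of X and autosomes overlapped in this class and at 5000 bp or more. With autosomal peaks weighted to the widths of the X peaks, 38% of them were unmatched in place of 36.5%.

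Members lay along the whole of X and were somewhat fuller in its central part than the matched peaks were. In 4 equal parts of X from the left end they numbered 90, 118, 98 and 99, while the matched peaks numbered 101, 88, 79 and 108. The central 50% of X held 216 members (53.3%, interval 48.3 to 58.3%), against 167 of 376 matched peaks of X (44.4%, 39.3 to 49.6%). Every autosome showed the same order: its central 50% held 57.1% (IV) to 69.3% (V) of its unmatched peaks, against 48.2% (II) to 58.2% (V) of its matched ones. X had the lowest central share of the 6 chromosomes for both kinds.

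At finer scale the members were uneven. The 17 complete megabases of X held between 12 and 37 members, with a median of 23. The fullest lay at 5 to 6 Mb with 37 members and 14 matched peaks, at 14 to 15 Mb with 34 and 26, and at 0 to 1 Mb with 28 and 23, a count shared with the megabases at 8 to 9 and 11 to 12 Mb. The emptiest were at 1 to 2 Mb with 12 members and 21 matched peaks, at 6 to 7 Mb with 13 and 17, and at 15 to 16 Mb with 15 and 23. Members outnumbered matched peaks in 7 of the 17 megabases of X and were fewer in 10. Peaks of replicate 2 alone outnumbered matched ones in 1 of 15 megabases on I, 1 of 20 on V, and 0 on II, III and IV. The larger unmatched share of X, which the rule used, enters this contrast, and no adjustment was made for it. Members made up the largest share of replicate 2 peaks at 9 to 10 Mb, where 25 stood beside 9 matched peaks (73.5%) and replicate 1 listed 22 peaks in all, followed by 5 to 6 Mb (72.5%).

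**Figure D2:**
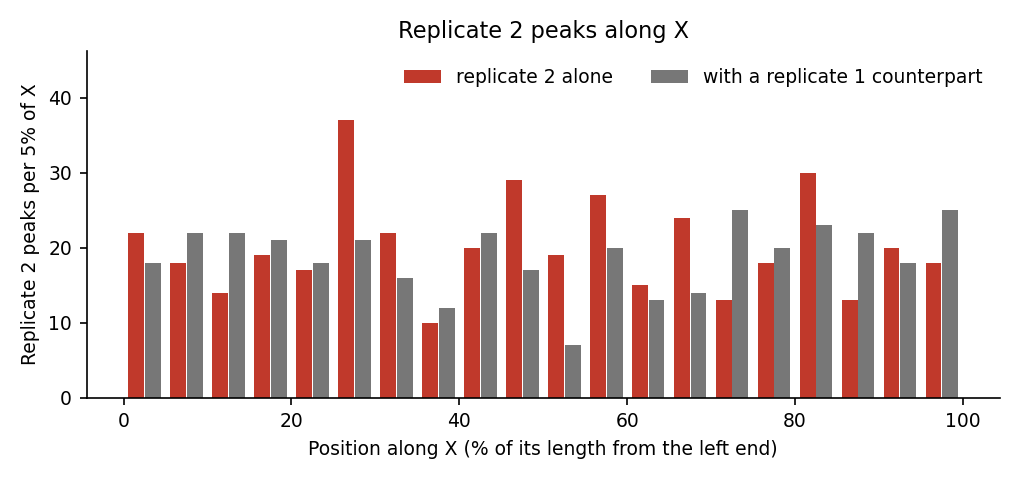
Replicate 2 peaks in 20 equal parts of X, placed by their midpoints, with peaks of replicate 2 alone on the left of each pair of bars and those with a replicate 1 counterpart on the right. Members peak at 37 between 25 and 30% of the length of X, where there are 21 matched peaks, and fall to 10 between 35 and 40%.

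Most members were narrow. Their median width was 1447 bp (interquartile range 1198 to 2179 bp, from 778 to 18142 bp), close to the 1413 bp (1168 to 2001 bp) of autosomal peaks of replicate 2 alone and inside the range of the 5 autosomal medians, 1368 bp on III to 1491.5 bp on II. Matched peaks of X had a median of 3406.5 bp (1903 to 6449 bp). Widths under 2 kb were found in 285 members (70.4%), against 75% of the autosomal peaks without a counterpart and 27.4% of the matched peaks of X. Widths over 5 kb were found in 19 members (4.69%), against 3.37% of those autosomal peaks and 35.9% of the matched peaks of X.

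**Figure D3:**
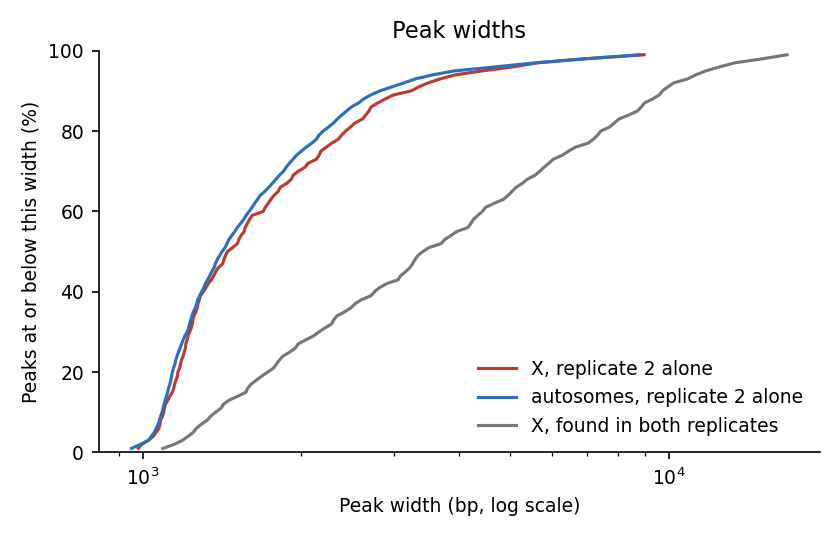
Cumulative share of peaks by width, on a log axis, for X peaks of replicate 2 alone, autosomal peaks of replicate 2 alone and X peaks found in both replicates. The curves of replicate 2 alone nearly coincide, with medians of 1447 bp on X and 1413 bp on autosomes, and that of X peaks found in both replicates lies to their right, with a median of 3406.5 bp.

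A few members were broad domains. The widest, X:9094349-9112490, spanned 18142 bp and lay 103 kb from the nearest matched peak and from the nearest replicate 1 peak. The next, X:5817193-5828928, spanned 11736 bp and lay 11.5 kb from a matched peak. X:3313699-3324979 spanned 11281 bp and X:16379436-16389674 spanned 10239 bp, and these 4 were the members over 10 kb (0.988% of members, against 0.799% of autosomal peaks of replicate 2 alone and 8.78% of matched peaks of X). The others of the 10 widest ran from X:5111302-5120294 (8993 bp) down to X:13880468-13886720 (6253 bp), with X:8567971-8576637, X:11368192-11376494, X:3900856-3908569 and X:10514058-10521012 between them.

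These broad members differed in how the series-wide list divided them. That list, made by the authors for the series as a whole, has shorter peaks. Under X:5817193-5828928 it had 3 peaks that covered 90.2% of the member, and 1 of them, X:5818301-5828445, was 10145 bp wide. Under the widest member it had 19 peaks that covered 37.5%, the widest of them 965 bp and the median 265 bp. X:3313699-3324979 met 14 series-wide peaks (35.4% of its bases) and X:16379436-16389674 met 4 (12.9%). The other broad members were covered to between 13.4% (X:11368192-11376494) and 56.5% (X:3900856-3908569). Members with most series-wide peaks were the widest, X:3313699-3324979 and X:8567971-8576637 (9 peaks), followed by X:1520053-1525850, X:3900856-3908569 and X:13880468-13886720 with 7 each.

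At the median, members lay farther from regions found in both replicates than autosomal peaks of replicate 2 alone did. The nearest matched replicate 2 peak was a median of 10.9 kb away (95% order-statistic interval 8.82 to 12.8 kb, quartiles 2.60 and 26.5 kb), measured between edges, against 4.42 kb (3.98 to 4.92 kb, quartiles 1.26 and 13.9 kb) for autosomal peaks of replicate 2 alone. Single autosomes ranged from 3.66 kb on III to 7.34 kb on V (interval 5.51 to 11.2 kb, which overlaps that of X). Within 1 kb of a matched peak lay 53 members (13.1%), against 21.2% of the autosomal peaks, and beyond 50 kb lay 46 members (11.4%), against 3.54% on the autosomes together and 11.1% on V. With autosomal peaks weighted to the widths of the members, their median was 4.44 kb, and that of V was 7.64 kb.

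Matched peaks, from which this distance is measured, were widely spaced on X, and the part of that spacing in the distance was not tested. Neighbouring matched peaks of X were separated by a median of 25.7 kb, against 5.83 kb on I, 7.41 kb on II, 5.32 kb on III, 9.97 kb on IV and 14.6 kb on V. Peaks of replicate 2 alone on IV lay 3.70 kb from a matched peak at the median (interval 2.97 to 4.75 kb). The medians were 4.43 kb on I (3.65 to 5.17 kb) and 4.65 kb on II (3.78 to 6.37 kb), with intervals that overlap that of IV. A member sat in a stretch between matched peaks of 69.2 kb at the median, against 39.6 kb for autosomal peaks of replicate 2 alone (62.7 kb on V). Within its stretch, a member's midpoint lay at 0.20 of the stretch's length from the nearer end (quartiles 0.092 and 0.344), where 0 is the end and 0.5 the middle, and the autosomal peaks lay at 0.21 (0.095 and 0.348). This relative place was measured after the distances had been seen.

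**Figure D4:**
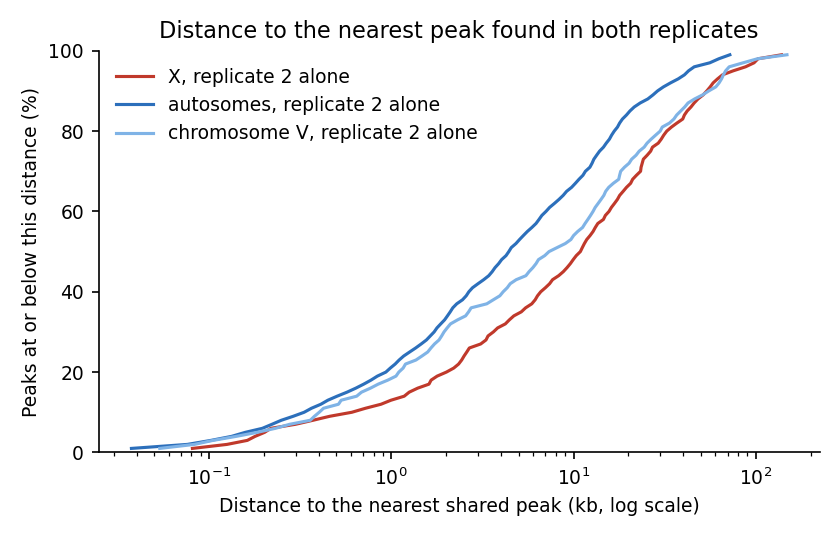
Cumulative share of peaks of replicate 2 alone by distance to the nearest replicate 2 peak that has a replicate 1 counterpart, on a log axis, for X, all autosomes and chromosome V. Medians are 10.9, 4.42 and 7.34 kb, and the curve of X lies to the right of that of the autosomes throughout the plotted percentiles, while those of X and V come together at long distances.

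The most isolated members lay in 2 long stretches without a matched peak. X:9067546-9068730, X:9070034-9072795 and X:9073053-9075055 lay 146, 142 and 140.0 kb from one, inside a stretch of 300 kb (X:8915130-9215029) that also held the widest member and 5 others, with no replicate 1 peak. X:11797463-11800990 and X:11801720-11804334 lay 143 and 139 kb from one, inside the longest such stretch of X, 336 kb (X:11607764-11943546), with 7 members and 1 replicate 1 peak. Members did not fill every long stretch alike: X:1519310-1845785, the second longest at 326 kb, held 1. Of 43 stretches over 100 kb, 39 held at least 1 member, and together they held 138 of the 405 (34.1%).

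At the other extreme, the nearest members almost touched a matched peak. X:16963485-16964647 lay 13 bp from one, X:13750760-13752935 lay 34 bp away, X:8416270-8417519 lay 49 bp away, X:14710779-14711969 lay 50 bp away and X:724943-727141 lay 80 bp away. The rule itself was tight in few places. The members closest to a replicate 1 peak were X:13750760-13752935 at 18 bp, X:14945009-14947503 at 47 bp, X:14453107-14454247 at 68 bp, X:7569372-7570614 at 132 bp and X:5519167-5520383 at 207 bp. The X peaks that narrowly had a counterpart were X:10390778-10393268 with 67 bp of overlap, X:14449978-14451382 with 78 bp, X:816916-818260 with 100 bp, X:17382482-17384277 with 208 bp and X:12624151-12625518 with 263 bp. Within 1 kb of a replicate 1 peak lay 43 members (10.6%), against 16.4% of the autosomal peaks, and the median distance to one was 10.2 kb on X and 4.63 kb on autosomes.

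Members came in runs along X, as peaks of replicate 2 alone also did on the autosomes. Following replicate 2 peaks in order, the 405 members formed 180 runs with no matched peak inside, of which 82 were single peaks (20.2% of members, against 31.4% of autosomal peaks of replicate 2 alone). Runs of 5 or more numbered 16 and held 115 members (28.4%), against 15.3% of those autosomal peaks and 12.2 to 17.9% on single autosomes. A chromosome with a larger unmatched share has longer runs on that account. The rule used that share and no adjustment was made for it, so this contrast is not read as a trait of X.

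The longest run had 14 members, from X:4990602 to X:5179539, a span of 189 kb with 30.4 kb under peaks and no replicate 1 peak. Its members were 984 to 8993 bp wide, and 5 of them met no series-wide peak. The second had 12 members, from X:16356916 to X:16540905 (184 kb), with 32.2 kb under peaks, 2 replicate 1 peaks between them and 35 series-wide peaks in the span. There were 2 runs of 9, one from X:7980666 to X:8108182 (128 kb) and the other in the stretch X:8915130-9215029 described above, with 33.0 kb under peaks. On the autosomes the longest run had 13 peaks, on IV, and that of V had 8.

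Most members met the series-wide list, though less of their length lay under it than on the autosomes. At least 1 series-wide peak overlapped 333 of 405 members (82.2%, interval 78.1 to 85.8%), against 1529 of 1753 autosomal peaks of replicate 2 alone (87.2%, 85.6 to 88.7%). The share was 94.6% over all replicate 2 peaks of the nuclear chromosomes, 86.3% over those without a counterpart, 99.9% over those with one, and 99.5% over the matched peaks of X. Single autosomes ranged from 84.8% on I (80.9 to 88.1%) to 90.9% on III, so that X was the lowest while its interval overlapped those of I, II, IV and V. No precipitated samples beyond replicates 1 and 2 belong to the series, so its list is no independent check of a member.

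The share of bases under series-wide peaks was 24.8% in members and 30.3% in autosomal peaks of replicate 2 alone, whose single chromosomes ranged from 28.8% (IV) to 31.5% (III). Taking each peak as 1 trial gave intervals of 20.6 to 29.2% for members and 28.2 to 32.6% for the autosomal peaks. These treat a share of bases as a count of peaks, so they do not measure its spread. Nothing is concluded from their overlap. In matched peaks it was 65.9% on X and 68.5% on autosomes. A single member was covered to 23.9% at the median (quartiles 13.2 and 32.5%), against 29.3% (16.9 and 40.1%) for the autosomal peaks. Series-wide peaks covered 50% or more of 16 members (3.95%), against 171 autosomal peaks (9.75%) and 239 of 376 matched peaks of X (63.6%). Members met 1.38 series-wide peaks on average and autosomal peaks 1.47, and 216 members (53.3%) met exactly 1, against 54.4% of the autosomal peaks.

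Taking peaks of like width left the support on X lower than on the autosomes together in most classes. It was 81.1% in members of 1000 to 1499 bp, against 86.5% in autosomal peaks of that width without a counterpart. It was 81.0% and 86.7% at 1500 to 2499 bp, and 87.3% and 90.2% at 2500 to 4999 bp. On chromosome V alone it was 81.5% at 1000 to 1499 bp, close to X, 89.5% at 1500 to 2499 bp and 93.9% at 2500 to 4999 bp. At 5000 bp or more all 19 members met a series-wide peak, against 58 of 59 autosomal peaks. Below 1000 bp 5 of 9 members and 33 of 41 autosomal peaks did. The intervals of X and autosomes overlapped in each class. The share of covered bases was lower in members in each of the 5 classes, for example 20.4% against 26.6% at 2500 to 4999 bp and 34.7% against 44.6% at 5000 bp or more. Weighted to the widths of the members, 87.7% of autosomal peaks met the series-wide list and 30.8% of their bases lay under it.

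**Figure D5:**
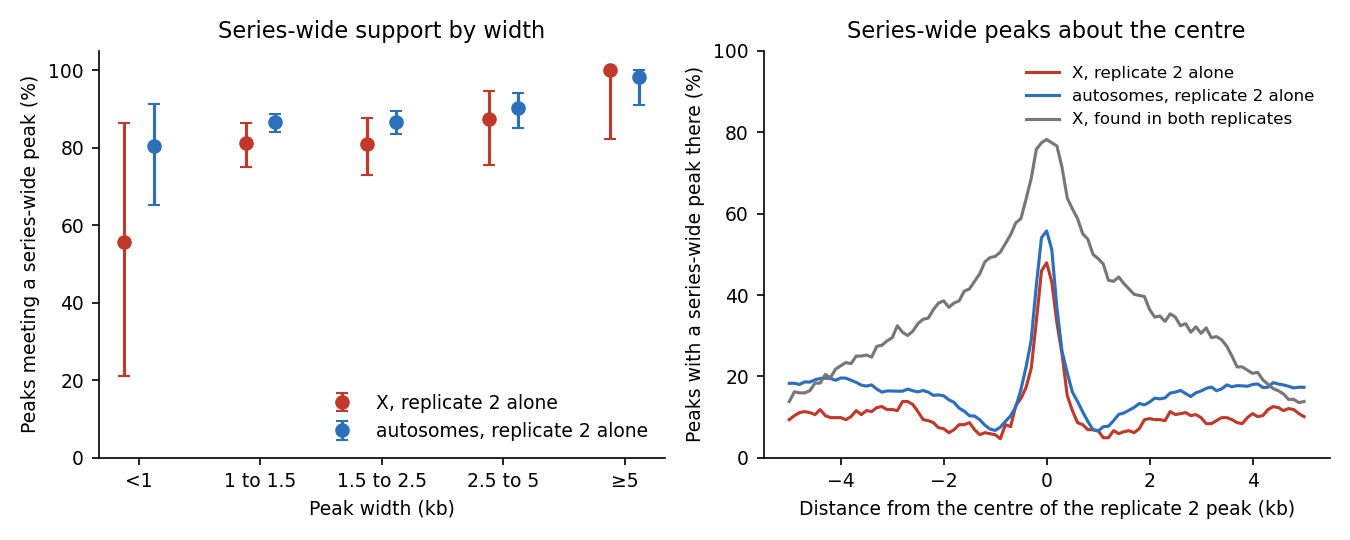
Left, share of peaks of replicate 2 alone that meet a series-wide peak, by width, for X and autosomes, with exact 95% binomial intervals that cover counting error only; right, share of peaks with a series-wide peak at each distance from their centre, for those groups and for X peaks found in both replicates. On the right the curves reach 47.9, 55.7 and 78.2% at the centre, and at 4 to 5 kb from it they average 10.9, 18.3 and 17.5%.

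Series-wide peaks lay at the middle of the members more often than at their flanks. The central base of a member was under a series-wide peak in 47.9% of cases, and the base 1 kb to the left or right in 5.68 and 6.67%. A base 1 kb from the centre lies outside any member narrower than 2 kb, as 70.4% were. Since the series-wide list is also not independent of replicate 2, this contrast is not read as a result about the members. Autosomal peaks of replicate 2 alone had 55.7% at the centre and 6.73 and 6.56% at 1 kb, while matched peaks of X, which are wider, had 78.2% at the centre and 49.5 and 48.9% at 1 kb. Between 4 and 5 kb from the centre the mean was 10.9% about members and 18.3% about the autosomal peaks. Matched peaks were sparser on X, and their part in this difference was not tested.

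The 72 members without any series-wide peak were somewhat narrower than the others and unevenly placed. Their median width was 1371.5 bp, against 1493 bp for members with one, and they lay 14.3 kb from the nearest matched peak at the median, against 9.51 kb. Autosomal peaks of replicate 2 alone showed the same order together, at 1374.5 against 1416 bp and 6.11 against 4.11 kb. Among single autosomes the order of width was reversed on I and II, and that of distance on IV. For the 72 members the nearest series-wide peak was a median of 2.40 kb away, and 17 of them had one within 1 kb. In the 4 equal parts of X from the left end, 15, 30, 19 and 8 members were without one, so that support was lowest in the second part (74.6%) and highest in the last (91.9%).

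The widest of them were X:11564689-11568461 (3773 bp), X:7629760-7633101 (3342 bp) and X:9407955-9411205 (3251 bp). The second lay 23.7 kb from any series-wide peak, the first 0.757 kb and the third 1.48 kb. X:6218930-6221618 lay 10.5 kb from one and X:2217339-2219764 lay 16.8 kb from one. The remaining 5 of the 10 widest, X:7987906-7990576, X:4990602-4993252, X:4880791-4883348, X:9413473-9415923 and X:8668415-8670772, were 2358 to 2671 bp wide. X:4990602-4993252 opened the longest run, and X:9407955-9411205 and X:9413473-9415923 lay within 3 kb of each other.

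Seen from the series-wide list, members took up a larger part of it on X than such peaks did elsewhere. Of the 2361 series-wide peaks on X, 557 met a member (23.6%, interval 21.9 to 25.4%), against 2573 of 16066 on the autosomes that met a peak of replicate 2 alone (16%, 15.5 to 16.6%) and 17.4% on V (15.9 to 19.0%). Those that met a member had a median width of 296 bp, against 449 bp for the 1321 that met a matched peak of X, and 312 bp for the autosomal ones that met a peak of replicate 2 alone. Series-wide peaks that met replicate 2 and not replicate 1, some of them inside matched peaks, made up 33.8% of the list on X and 25.9% on the autosomes. The larger unmatched share of X, which the rule used, enters these contrasts of shares, and no adjustment was made for it. Per kb of their own length, members met 0.691 series-wide peaks and autosomal peaks of replicate 2 alone met 0.782.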

How the data were processed

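Chromatin of 2 embryo samples was precipitated with 8WG16 and sequenced. Reads were aligned with BWA to ce10, per the submitters' processing notes. The authors deposited peaks called with MACS for each precipitated sample and peaks called with MACS v2 for the series as a whole, all in build WormBase WS220, per the file headers and column 2 of the lists. The control, the read filters and the way replicates were combined are not stated in the labels or files. The name of the replicate 2 list holds the word trimmed and that of replicate 1 does not. What was trimmed, and whether replicate 1 was treated alike, is not stated. The first and last base of each peak were used, and scores were not.

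The tools were pandas 2.3.3 and numpy 2.4.6 under Python 3.11.15, scipy 1.17.1 for intervals and matplotlib 3.10.9 for plots. A replicate 2 peak had a counterpart, and is called matched, when it overlapped a replicate 1 peak by 1 bp. Peaks were placed by midpoint. Each chromosome was taken to end at the last base of its last peak in any list. Shares of peaks have exact Clopper-Pearson intervals (95%), medians have binomial order-statistic intervals. For shares of bases, the share was multiplied by the number of peaks and rounded to a count before the Clopper-Pearson interval was taken. Width classes had edges at 1000, 1500, 2500 and 5000 bp, or were quintiles of the widths. The overlap code was checked on simulated lists.

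Regions were named by rule: the 10 widest members, the 5 farthest from and nearest to a matched peak, the 5 on either side of the overlap limit, the 5 with most series-wide peaks, the 10 widest without one, the longest run, and the 3 fullest and emptiest megabases. Other regions named were chosen after their values were seen. The members, lists and measures were chosen with earlier results of these data known. Genes and sequence are not given, because the annotation used here was of another build, WBcel235.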

Additional observations from a re-analysis of the deposited data

How the results depend on the processing

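No test was made, so the alternatives are compared as values. No paired analysis was possible because no peak list of an input sample was used and the precipitated samples form a single group. The members cannot be defined with a replicate left out, and a list made stricter by score was not run, since scores were not used. The number of members lay between 366, with peaks less than 200 bp apart merged, and 409, with an overlap of 10% of the peak required. Of 65 alternative values, 57 stayed inside the interval of the reported one, or within 1.5 times of it for the number of members. For shares of bases this count used the intervals that do not measure their spread. When a replicate 1 peak within 500 bp also counted as a counterpart, 33.1% of autosomal peaks were unmatched and their median distance to a matched peak was 5.30 kb. With shared peaks taken from replicate 1 that distance was 5.13 kb. With chromosome V alone it was 7.34 kb and 38.3% were unmatched. Weighted to the widths of the X peaks in quintile classes, 38% of autosomal peaks were unmatched. With series-wide peaks required to cover 50% of a peak, support was 3.95% in members and 9.75% in autosomal peaks. X kept its side of the autosomes for the unmatched share, the distance, the support and the covered bases in every alternative run, while the difference in median width, 34 bp, was -3.5 bp against chromosome V alone.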
